A study of Caenorhabditis elegans with 12 samples.

Results

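The fbxa, fbxb and fbxc genes of Caenorhabditis elegans were taken from a count table of whole L4 larvae as every protein-coding gene with one of these names and a number. They came to 322 genes, of 46987 features in the table: 170 fbxa, 104 fbxb and 48 fbxc genes. Worms of the Bristol N2 strain were kept at 25 °C and given AO168=O in the agar for about 46 h, starting as embryos. AO168=O is the phosphate formed when a phosphite antioxidant of plastics is oxidised. The 4 groups had 0 (control), 400, 2000 or 10000 ng of AO168=O per g of agar, and all 4, the control included, carried 0.01% ethanol. Each group held 3 libraries of poly(A) RNA, described by the series as independent biological replicates of about 1000 pooled worms, and the labels put all 12 in 1 batch.

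F-box proteins are the substrate-recognition subunits of SCF ubiquitin ligases, in which a cullin scaffold and a Skp1-related adaptor bring the F-box protein and its bound substrate to the ubiquitin-conjugating enzyme. The fbxa, fbxb and fbxc families are greatly expanded in this worm, and most of their members have no known substrate. A few fbxa genes belong to the intracellular pathogen response, a transcriptional program that is set off by microsporidia and a virus, includes many pals genes and uses a ligase built on the cullin CUL-6 with Skp1-related adaptors.

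Libraries held 36897811 to 47211800 counts in all, and the F-box genes took 0.0426% to 0.0720% of them. Both ends of that range lay within the 400 ng/g group, with 0.0720% in replicate 1 and 0.0426% in replicate 2. The marker genes matched by name for the germ line, intestine, body wall muscle, neurons, epidermis and pharynx were all among the tested genes. Not every planned epidermis marker was found by name, and 5 were matched. The RNA was that of whole worms, so fewer cells of a type and less RNA per cell cannot be told apart.

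The 3 subfamilies differed widely in how many of their members were expressed. A filter on low counts, which asks for about 0.257 CPM (counts scaled to library size) in 3 or more libraries, passed 159 of the 322 genes, or 49.4%, against 79.1% of the 19985 protein-coding genes in the table. By subfamily 131 of 170 fbxa genes passed (77.1%), 18 of 48 fbxc genes (37.5%) and 10 of 104 fbxb genes (9.62%). In all 12 libraries together 67 of the 322 genes had no count at all (20.8%), against 1049 of the 19985 protein-coding genes (5.25%). These silent genes were 43 of the fbxb genes (41.3%), 12 of the fbxc genes (25%) and 12 of the fbxa genes (7.06%). The other 96 genes outside the filter were nearly silent too: 45 had between 1 and 10 counts over the 12 libraries, and the highest total among the 51 others was 86 counts. At this depth a gene with no count in any library was not detectable, which is not the same as absent.

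Per unit of gene length, as deposited FPKM, the median level over all members of a subfamily was 0.956 for fbxa, 0.0348 for fbxc and 0.00379 for fbxb. The 7 genes with a mean of at least 10 FPKM were all fbxa genes. The highest was fbxa-60, at 17.2, 18.6 and 22.5 FPKM in control libraries, and its 12 libraries lay between 13.6 and 23.9 FPKM. Next in order of mean FPKM over the 12 libraries came fbxa-101 (14.4), fbxa-210 (12.3) and fbxa-64 (10.7). The libraries of fbxa-60 and fbxa-101 overlapped, so their order is not separated by the spread. Among fbxc genes the highest means were 8.14 FPKM for fbxc-45, 8.01 for fbxc-44 and 7.40 for fbxc-52, a trio closer together than their spread between libraries, and 4.22 for fbxc-58. Only 1 fbxb gene, fbxb-7, passed 1 FPKM, with a mean of 1.38. The next were fbxb-38 at 0.821, fbxb-101 at 0.595 and fbxb-72 at 0.510 FPKM.

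**Figure D1:**
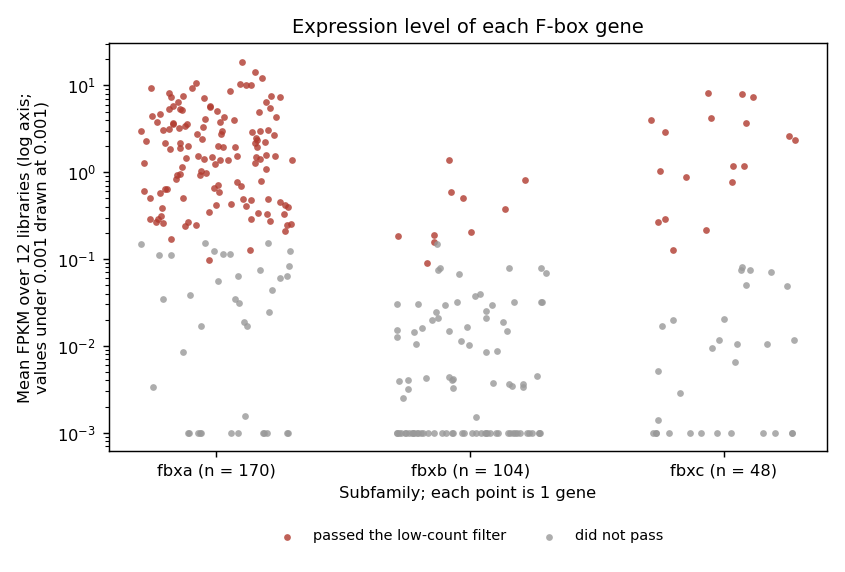
Mean FPKM over 12 libraries (log axis, values under 0.001 drawn at 0.001) for each of the 170 fbxa, 104 fbxb and 48 fbxc genes; red genes passed the low-count filter and grey genes did not. Most fbxa points lie above the fbxb points, of which 43 had no count in any library.

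Protein signatures deposited with the table followed the same split. The FTH domain, a module found in many worm F-box proteins, was the only signature of 112 fbxa genes, of which 85 passed the filter. An F-box-associated domain marked 91 of 104 fbxb genes, of which 9 passed. A domain of unknown function, DUF3557, marked 39 of 48 fbxc genes, of which 11 passed (28.2%), whereas 7 of the 9 fbxc genes with no signature passed (77.8%). The signature of the F-box itself was listed for 24 genes, all of them fbxa.

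Position on the chromosomes gave a similar picture. Of the 322 genes, 107 lay on chromosome II, 87 on V, 68 on III, 27 on IV, 17 on X and 16 on I, and the share that passed the filter was 28% on II, 64.4% on V and 75% on III. With neighbours joined at gaps of up to 10000 bases, 227 genes fell into 51 clusters of 2 or more and 95 stood alone. Clusters of fbxa genes were mostly expressed: that at chrIII:1239048-1324613 (WBcel235) held 22 fbxa genes, of which 17 passed, and that at chrIII:933422-963833 held 10, of which 8 passed, among them fbxa-60. Clusters made up of fbxb genes alone held 54 genes, of which 2 passed and 24 had no count. At chrII:1536231-1557510 all 7 were outside the filter, 5 of them with no count. A block of 13 genes at chrII:1676388-1725693 with 9 fbxb, 3 fbxc and 1 fbxa members had no gene past the filter, and 10 had no count. On chromosome IV, the 10 fbxc genes at chrIV:891239-911196 are fbxc-12 and several loci each under the shared names fbxc-4, fbxc-5 and fbxc-8, and none passed. How reads of such like-named loci were split in counting is not given, so their values are uncertain.

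Within groups the tested F-box genes varied more between libraries than most genes, at lower levels. Their median within-group SD was 0.420 on the log2 CPM scale at a median of 2.06 CPM, against 0.263 at 10.7 CPM over the 16665 genes tested. The steadiest fbxa gene of at least 1 CPM was fbxa-64, with an SD of 0.134, and the most variable was fbxa-42, with 1.38. In the 400 ng/g libraries fbxa-42 had 2.07, 0.0584 and 1.21 CPM. Replicate 1 of the 400 ng/g group was the highest of the 12 libraries for 44 of 159 F-box genes (27.7%), against 18.4% of all genes tested. The clearest case was fbxa-24, with 41.9 CPM in that library, against 7.06 and 10.3 CPM in the other 400 ng/g libraries and at most 21.3 CPM in any other library. The highest fbxb gene, fbxb-7, had 4.16 CPM in that library, against 0.817 and 2.23 CPM in replicates 2 and 3 and at most 2.31 CPM elsewhere. For both genes the 400 ng/g group thus overlapped the control group.

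The comparison of the 10000 ng/g group with the control asks whether the highest dose changed the F-box genes. Of the 159 tested genes, 0 passed an adjusted p of 0.05 in edgeR's quasi-likelihood test, adjusted by the Benjamini-Hochberg method over all 16665 genes, where the background was 0.252%. At an unadjusted p under 0.05 there were 31, 24 with a higher and 7 with a lower level at 10000 ng/g, or 19.5%, against 20.6% of all genes tested. DESeq2 on the same genes called 8 of the 159 (5.03%), where its background was 6.64%. Without replicate 1 of the 400 ng/g group, the library in which F-box genes were high, edgeR called 6 of the 167 then tested (3.59%, background 3.09%). Both shares lay near those of all genes under the same fits. The median log2 fold change of tested genes was 0.23 for 131 fbxa, 0.17 for 10 fbxb and 0.16 for 18 fbxc genes, against -0.01 for all genes tested. It was 0.06, 0.26 and -0.04 at 400 ng/g, and -0.07, -0.01 and -0.16 at 2000 ng/g, in the same order of subfamilies, where all genes had 0.04 and -0.02. With a library left out in turn, the fbxa median at 10000 ng/g stayed between 0.18 and 0.26, but at 400 ng/g it turned to -0.09 without replicate 1 of that group, and at 2000 ng/g to 0.03 without control replicate 3. The fbxb median at 10000 ng/g ran from -0.08 to 0.34 over left-out libraries, and it was negative without control replicate 1 and without any library at 10000 ng/g. The small fbxc median at 400 ng/g (-0.14 to 0.06) and fbxb median at 2000 ng/g (-0.28 to 0.02) also took both signs. Genes that pass the filter partly because they are high in a group are included, although the passing libraries lay in a single group for only 2 of the 159. Among the 102 F-box genes with a mean of at least 1 CPM over all libraries the median at 10000 ng/g was 0.14, and for the 12 fbxc genes among them it was -0.10. All 3 doses were set against the same 3 control libraries.

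**Figure D2:**
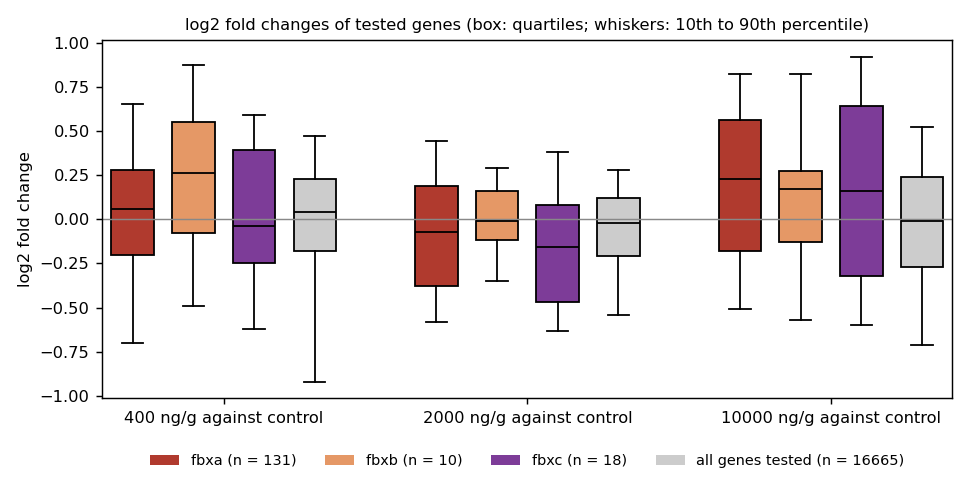
log2 fold changes of tested genes at each dose against control, for 131 fbxa, 10 fbxb and 18 fbxc genes and all 16665 genes tested; the box spans the quartiles with the median as a line, and whiskers run to the 10th and 90th percentiles. The fbxa median lies at 0.23 at 10000 ng/g, against -0.01 for all genes, and at 0.06 and -0.07 at 400 and 2000 ng/g.

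The direction of the differences was uneven at 10000 ng/g. In 53 of the 159 genes (33.3%) the 3 libraries at 10000 ng/g did not overlap the 3 controls, a share close to the background of 34.3%. Of these 40 were higher (25.2%, against 16% of all genes) and 13 lower (8.18%, against 18.3%), and the difference between these shares was not tested. A split in the same direction was seen in math, bath and btb genes, another expanded family of ubiquitin-ligase adaptors, with 19 higher and 7 lower of 70 tested. At 400 ng/g 6 F-box genes were higher (background 8.19%) and 15 lower (background 12.2%) without overlap, 13.2% in all against 20.4%. At 2000 ng/g 8 were higher (background 6.04%) and 14 lower (background 5.47%), 13.8% in all against 11.5%. No F-box gene passed the adjusted test at 400 or at 2000 ng/g, where the background was 0% for both, while 19 (11.9%, background 18.5%) and 11 (6.92%, background 5.15%) had an unadjusted p under 0.05. At 400 ng/g DESeq2 called 9 of 159 (5.66%, background 9.8%). The edgeR count there was 4 of 166 without replicate 3 of the 2000 ng/g group (2.41%, background 5.31%) and 1 of 169 without replicate 3 of the 400 ng/g group (0.592%, background 3.88%). In these fits F-box genes were called at a lower share than all genes, a difference that was not tested. The trend over dose order gave 0 calls of 159, with a background of 0.006%.

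Averaged over the fbxa genes tested, log2 CPM minus its mean over the controls came to 0.24, 0.34 and 0.21 in the 10000 ng/g libraries, against -0.15, 0.05 and 0.10 in the controls. The 3 libraries at 10000 ng/g lay above all controls, but the 400 ng/g group reached 0.30 in replicate 1 and -0.27 in replicate 2 and so spanned most of the range. The 70 math, bath and btb genes had 0.29, 0.15 and 0.25 at 10000 ng/g, against -0.17, 0.01 and 0.17 in control libraries. In the pals family, many of whose genes belong to the intracellular pathogen response, 7 of 32 tested genes passed the adjusted test at 10000 ng/g (background 0.252%). All 7 were higher, and the median log2 fold change of the 32 was 1.39. Major sperm protein genes, which are switched on as sperm form, had negative log2 fold changes in 29 of 29 tested at each dose, and 0 passed the adjusted test. At an unadjusted p under 0.05 there were 29 at 400 ng/g (background 18.5%), 8 at 2000 ng/g (background 5.15%) and 27 at 10000 ng/g (background 20.6%). Their summed level was 819 to 1839 CPM in the controls, 197 to 565 CPM at 400 ng/g, 395 to 984 CPM at 2000 ng/g and 323 to 655 CPM at 10000 ng/g, so that 2000 ng/g overlapped the controls.

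Markers of several tissues also differed at 10000 ng/g by as much as the fbxa median or more, although 0 genes of these lists passed at any dose. Neuron markers had a median log2 fold change of 0.39, with 7 of 8 positive and a summed level of 714 to 723 CPM at 10000 ng/g, against 559 to 607 CPM in the controls. Pharynx markers had 0.40, with 4 of 4 positive and 1349 to 1703 CPM at 10000 ng/g, against 943 to 1270 CPM in the controls. Germ line markers had -0.42, with 9 of 10 negative and 1296 to 1476 CPM at 10000 ng/g, against 1661 to 1987 CPM in the controls. Oogenesis and eggshell genes (15 of 16 negative) and adult cuticle genes (6 of 6 negative) had medians of -0.69 and -1.23, and their summed levels at 10000 ng/g lay below all controls. Epidermis markers had -0.27, with 2 positive and 3 negative of 5, and summed to 1622 to 1770 CPM at 10000 ng/g, against 2138 to 2434 CPM in the controls. Averaged over these 5 genes, log2 CPM minus its control mean was -0.05, -0.11 and 0.03 at 10000 ng/g. It was 0.05, -0.02 and -0.02 in the controls, so these averages overlapped. Intestine and body wall muscle markers had 0.06 and 0, and their summed levels overlapped the controls. At 400 ng/g, where the fbxa median was 0.06, the medians were 0.38 for neuron, 0.43 for pharynx and -0.40 for germ line markers. Oogenesis and eggshell genes had -0.83 there and adult cuticle genes -0.92. Epidermis, intestine and body wall muscle markers had 0.05, 0.11 and 0.12 at 400 ng/g. The part of these genes, and of the sperm genes, in the F-box values was not tested.

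**Figure D3:**
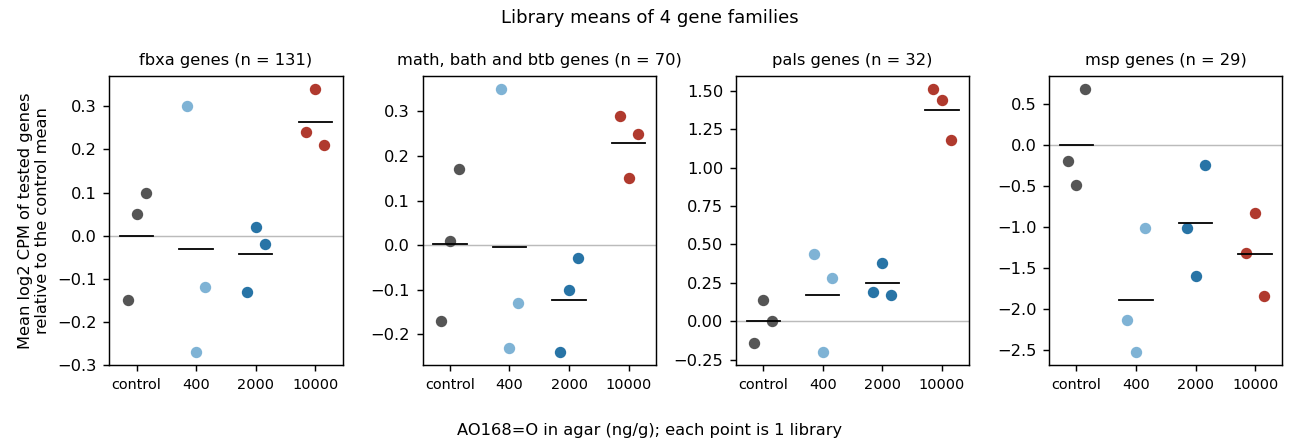
Mean log2 CPM minus that of the controls (vertical axis, own scale in each panel) in each of the 12 libraries, for fbxa, math with bath and btb, pals, and major sperm protein (msp) genes; lines are group means. At 10000 ng/g the fbxa libraries lie at 0.21 to 0.34 and the pals libraries at 1.18 to 1.51.

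The F-box gene past the threshold was fbxa-136 (chrV:17521035-17527479, WBcel235, plus strand), which carries an FTH domain and has no annotated overlap with another gene's exons. Its levels were 7.38, 6.98 and 6.18 CPM at 10000 ng/g, against 2.28, 2.19 and 1.38 CPM at 400 ng/g. At 2000 ng/g it had 1.79, 2.55 and 1.29 CPM, and in the controls 3.04, 3.45 and 3.06 CPM. All 3 libraries at 10000 ng/g lay above the other 9, and the libraries at 400 and 2000 ng/g lay below every control. It rose at 10000 ng/g against 400 ng/g, by a log2 fold change of 1.81 ± 0.265 (SE, n = 3 libraries a group, edgeR adjusted p = 0.0282), and it was 1 of the 159 genes called, with a background of 0.096%. Against 2000 ng/g the log2 fold change was 1.87 ± 0.266 (SE, n = 3 libraries a group, edgeR adjusted p = 0.0384), again 1 call of 159, with a background of 0.048%. The test of any difference among the 4 groups also called fbxa-136 alone (edgeR adjusted p = 0.0338, background 0.084%).

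Against control, fbxa-136 was higher at 10000 ng/g by a log2 fold change of 1.10 ± 0.258 (SE) without passing (edgeR adjusted p = 0.0934). The differences at 400 and 2000 ng/g from the control were -0.71 and -0.76, and neither passed (edgeR adjusted p = 0.161 and 0.855). The calls depended on single libraries. Against 400 ng/g the call was lost without control replicate 2, 400 ng/g replicate 2 or 3, 2000 ng/g replicate 1 or any library at 10000 ng/g, with adjusted p of 0.0532 to 0.200, and the log2 fold change stayed between 1.64 and 1.95. Against 2000 ng/g it was lost without any control, 2000 ng/g replicate 1 or 3 or any library at 10000 ng/g, with adjusted p of 0.0502 to 0.313 and log2 fold changes between 1.66 and 2.15. The test of any difference lost it without any control, 400 ng/g replicate 2 or 3, 2000 ng/g replicate 1 or any library at 10000 ng/g, with adjusted p of 0.0516 to 0.303. With library totals alone in place of TMM factors, fbxa-136 was not called against 400 ng/g (edgeR adjusted p = 0.0536) or against 2000 ng/g (edgeR adjusted p = 0.0739). In a fit of only the 2 groups compared it was not called against 400 ng/g (edgeR adjusted p = 0.161). DESeq2, the replicate block and the other scaling and filter settings kept all 3 calls.

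In 11 of the 159 tested genes all 3 libraries at 10000 ng/g lay above the other 9, or 6.92%, against a background of 2.59%. All 11 were fbxa genes, which were 82.4% of the F-box genes tested: fbxa-10, fbxa-12, fbxa-14, fbxa-53, fbxa-75, fbxa-136, fbxa-151, fbxa-158, fbxa-174, fbxa-188 and fbxa-189. In fbxa-75 and fbxa-174 no control reached the filter level, and the 10000 ng/g libraries alone were enough to pass it. The 6.92% thus includes genes that could enter the test through this group, and its difference from 2.59% was not tested. Among the other groups 0 genes had the 3 libraries at 400 or at 2000 ng/g above all 9 others, where the background was 0.768% and 0.186%. In 1 gene, fbxa-90, the libraries at 10000 ng/g lay below all others, at 2.36, 2.53 and 2.51 CPM, against 3.18, 3.86 and 3.08 CPM in the controls (0.629%, background 1.61%).

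The smallest p of an F-box gene at 10000 ng/g against control belonged to fbxa-189, a gene with an FTH domain at chrV:17345214-17347781. It had 10.99, 9.53 and 10.05 CPM at 10000 ng/g, against 4.84, 6.12 and 6.504 CPM in the controls, and no library at the other doses exceeded 7.2 CPM. The log2 fold change was 0.81 ± 0.166 (SE, n = 3), edgeR adjusted p = 0.0746. Its neighbour fbxa-188, at chrV:17342791-17344926 on the other strand, had 8.68, 10.5 and 7.81 CPM at 10000 ng/g, against 4.57, 6.05 and 7.18 CPM in the controls. In both genes all 3 libraries at 10000 ng/g lay above the other 9. In their cluster, 4 of 4 tested genes had a positive log2 fold change at 10000 ng/g with a median of 0.64.

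Clusters with 4 or more tested genes numbered 9, and in 5 of them every tested gene had a positive log2 fold change at 10000 ng/g, where 69.8% of the tested F-box genes and 48.7% of all genes did. The other 4 clusters had 6 of 8, 5 of 6, 3 of 4 and 2 of 4 positive. In the fbxa cluster at chrIII:1239048-1324613, 17 of 17 tested genes had a positive log2 fold change at 10000 ng/g, with a median of 0.40, and 7 lay above the controls without overlap, as did 25.2% of the tested F-box genes and 16% of all genes. These 17 and 7 genes include fbxa-75, whose 10000 ng/g libraries alone were enough to pass the low-count filter. In that cluster 10 of 17 were positive at 2000 ng/g and 14 of 17 at 400 ng/g. In the cluster of 6 fbxa genes at chrII:1609252-1624672, 5 of 5 tested were positive at 10000 ng/g with a median of 0.68. In a cluster of 18 fbxc and 2 fbxb genes at chrII:907448-1001451 and one of fbxa genes at chrIII:1336695-1349450, 4 of 4 tested genes each were positive, with medians of 0.50 and 0.36. Neighbours may share sequence and are not independent of each other, and the clusters were described after their values were seen.

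The large chromosome III cluster holds fbxa-76 and fbxa-75. The levels of fbxa-76 were 3.47, 3.81 and 4.56 CPM at 10000 ng/g and 2.91, 3.47 and 3.49 CPM at 400 ng/g, against 2.52, 1.91 and 1.503 CPM in the controls. Both doses lay above every control, with log2 fold changes of 1.00 ± 0.235 and 0.74 ± 0.235 (SE) that did not pass (edgeR adjusted p = 0.0934 and 0.104). The gene fbxa-75, whose protein is known as a substrate adaptor of the CUL-6 ligase in the intracellular pathogen response, was near the limit of detection. It had 31, 16 and 33 counts at 10000 ng/g, against 0, 8 and 0 counts in the controls, which did not overlap. The edgeR adjusted p was 0.130. Its libraries at 10000 ng/g alone were enough to pass the low-count filter, so the difference is not independent of that filter.

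The other known CUL-6 partner, fbxa-158 in the chromosome II cluster, had 4.42, 6.07 and 4.37 CPM at 10000 ng/g, against 1.19, 3.76 and 4.28 CPM in the controls. The groups did not overlap, but the highest control lay just under the lowest exposed library, and the log2 fold change of 0.68 ± 0.444 (SE) did not pass (edgeR adjusted p = 0.393). In the same cluster fbxa-165 had 2.51, 3.05 and 3.20 CPM at 10000 ng/g, against 0.554, 0.762 and 1.76 CPM in the controls. The difference of fbxa-165 was 1.5 ± 0.615 (SE) in log2 units, with an edgeR adjusted p of 0.204, and replicate 1 at 400 ng/g reached 2.604 CPM.

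Among fbxc genes of at least 1 CPM the largest positive difference without overlap at 10000 ng/g was that of fbxc-51, a DUF3557 gene, with 2.17, 2.26 and 1.79 CPM at 10000 ng/g, against 1.16, 1.14 and 0.933 CPM in the controls. The groups did not overlap, but replicate 2 at 400 ng/g reached 2.22 CPM, and the log2 fold change of 0.94 ± 0.331 (SE) did not pass (edgeR adjusted p = 0.161).

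The gene fbxa-182, at chrII:2409633-2412749, is among the highest of the family. It had 31.1, 30.3 and 23.3 CPM at 10000 ng/g, against 18.96, 13.6 and 17.5 CPM in the controls. The groups did not overlap, although 2000 ng/g reached 24.4 CPM, and the log2 fold change was 0.76 ± 0.209 (SE, edgeR adjusted p = 0.116). An FTH-domain gene with an F-box signature, fbxa-12, had 2.59, 2.92 and 2.05 CPM at 10000 ng/g, against 1.30, 1.60 and 1.32 CPM in the controls. All 3 lay above the other 9 libraries, and 4 bases of its exons overlap srd-65 on the other strand. On chromosome V the adjacent genes fbxa-172 and fbxa-174 were both higher without overlap. The gene fbxa-172 had 3.38, 4.54 and 3.84 CPM at 10000 ng/g, against 0.913, 2.10 and 2.23 CPM in the controls, and 5.53 CPM in replicate 1 at 400 ng/g. The gene fbxa-174 had 16, 12 and 19 counts at 10000 ng/g and 0 in each control, and so was at least 4.92-fold higher against a floor of 3 counts per control library. Its libraries at 10000 ng/g alone were enough to pass the low-count filter, so the difference is not independent of that filter.

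**Figure D4:**
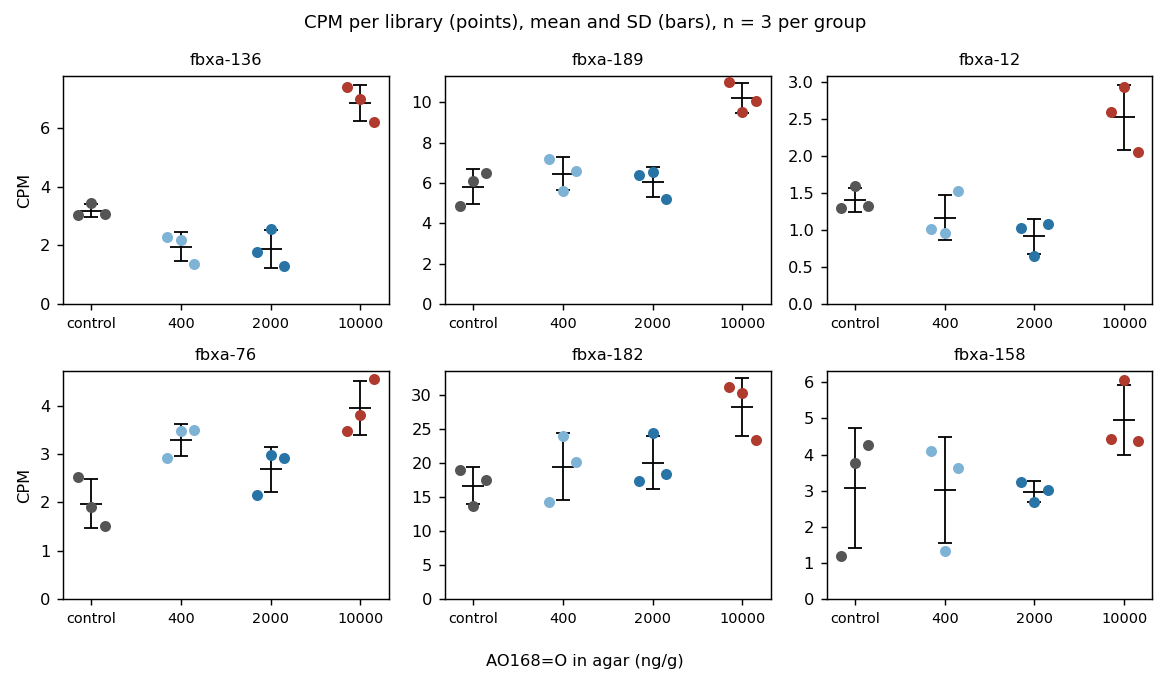
CPM per library (points) with mean and SD (bars, n = 3 per group) for 6 fbxa genes in the control, 400, 2000 and 10000 ng/g groups. In fbxa-136 the 10000 ng/g libraries lie at 6.18 to 7.38 CPM, against 3.04 to 3.45 CPM in the controls and at most 2.55 CPM at the other doses.

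Some F-box genes had lower levels under exposure, and among those named with a mean of at least 1 CPM the largest falls were at 400 ng/g. The gene fbxa-155 had 2.95, 1.78 and 4.44 CPM at 400 ng/g, against 7.86, 6.999 and 8.89 CPM in the controls. The groups did not overlap, and the log2 fold change was -1.37 ± 0.314 (SE, n = 3), edgeR adjusted p = 0.0523. At 10000 ng/g it had 4.79, 5.21 and 3.12 CPM, with a log2 difference of -0.86 (edgeR adjusted p = 0.168), and the controls were above all 9 other libraries, although replicate 3 at 2000 ng/g, at 6.998 CPM, was all but level with the lowest control. The same order held in fbxa-183, which had 0.919, 0.292 and 0.546 CPM at 400 ng/g, against 1.41, 1.69 and 2.07 CPM in the controls (log2 fold change -1.53 ± 0.424, edgeR adjusted p = 0.0688). These were the 2 genes (1.26%) with the controls above all else, against a background of 1.44%.

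The genes fbxa-218, fbxa-202 and fbxa-196 did not overlap the controls at 400 ng/g either. Of these, fbxa-218 had 1.51, 1.05 and 1.40 CPM at 400 ng/g, against 3.35, 2.95 and 3.71 CPM in the controls (log2 fold change -1.33 ± 0.321, edgeR adjusted p = 0.0554). For fbxa-202 the values were 3.77, 1.93 and 2.68 CPM at 400 ng/g, against 6.37, 5.67 and 8.06 CPM in the controls. For fbxa-196 they were 1.53, 1.31 and 1.35 CPM at 400 ng/g, against 2.96, 2.83 and 5.21 CPM in the controls. All 3 passed neither this test nor that at 10000 ng/g. The gene fbxc-49 had 0.613, 0.234 and 1.14 CPM at 400 ng/g and 1.19, 0.860 and 0.400 CPM at 10000 ng/g, against 1.49, 1.76 and 2.44 CPM in the controls. Neither dose overlapped the controls, and the log2 fold changes of -1.5 at 400 ng/g and -1.20 at 10000 ng/g did not pass (edgeR adjusted p = 0.173 and 0.250). Its within-group SD of 0.770 on the log2 scale was the largest among fbxc genes of at least 1 CPM, where fbxc-45 had the smallest, 0.276. The log2 fold change of fbxc-48 at 10000 ng/g was -1.11 (edgeR adjusted p = 0.144). Genes of at least 1 CPM that lay above the controls at 400 ng/g without overlap were fbxa-76, fbxa-84 and fbxa-219, the last pair with log2 fold changes of 0.37 and 0.28 (edgeR adjusted p = 0.450 and 0.576). The opposite pattern was seen in fbxc-40, where the controls had 0.277, 0.333 and 0.104 CPM, below all 9 exposed libraries, which ran from 0.536 to 1.23 CPM (1 gene, 0.629%, background 1.51%).

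**Figure D5:**
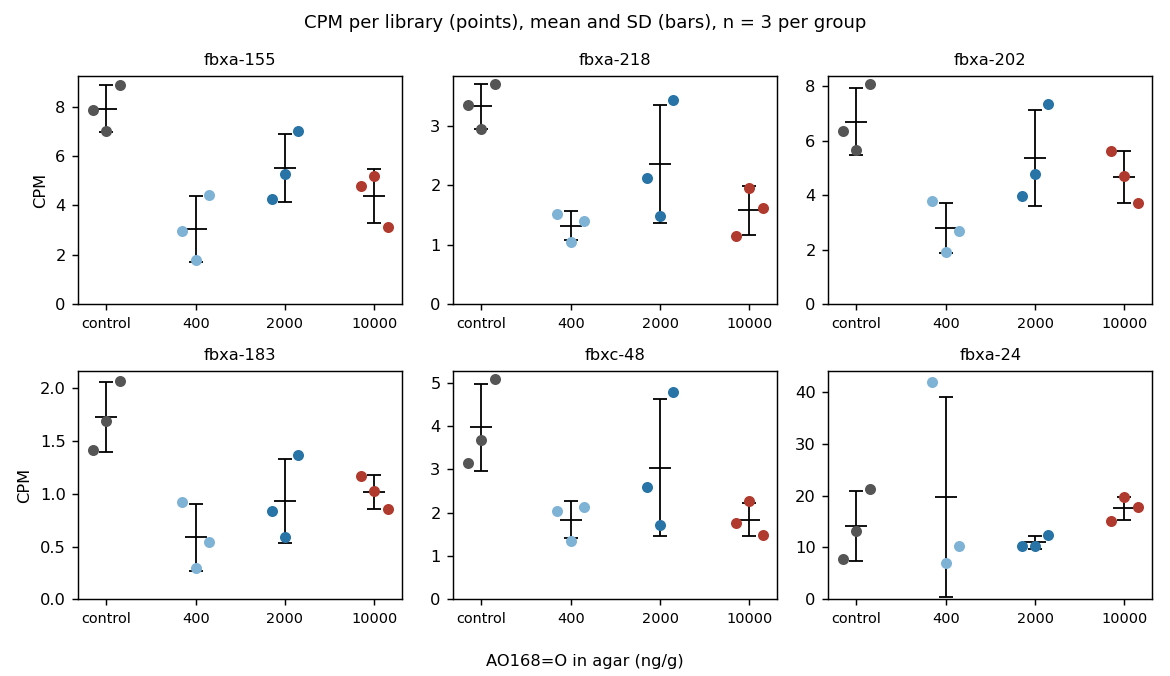
CPM per library (points) with mean and SD (bars, n = 3 per group) for 5 genes lower at 400 ng/g than in the controls and for fbxa-24. In fbxa-24 replicate 1 of the 400 ng/g group stands at 41.9 CPM and every other library at or below 21.3 CPM.

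Among genes with a mean of at least 1 CPM, the largest differences from control without overlap at 2000 ng/g were those of fbxa-183, fbxa-136, fbxa-105, fbxa-197 and fbxa-12 among lower genes and of fbxa-166, fbxa-79, fbxa-156, fbxa-11 and fbxa-39 among higher ones. The gene fbxa-105 had 5.83, 5.25 and 4.60 CPM at 2000 ng/g, against 8.39, 9.21 and 7.90 CPM in the controls, and fbxa-197 had 5.46, 4.89 and 6.34 CPM at 2000 ng/g, against 7.86, 8.999 and 9.56 CPM in the controls. These higher genes had log2 fold changes between 0.26 and 0.40. Under 1 CPM, 3 more tested genes were higher without overlap, fbxa-36, fbxc-40 and fbxa-71. The log2 fold changes of fbxc-40 and fbxa-71 were 1.69 and 0.75, and fbxa-36 had 0.473, 0.567 and 0.500 CPM at 2000 ng/g, against 0.194, 0 and 0 CPM in the controls. Likewise 2 genes under 1 CPM were lower, fbxc-20 and fbxa-52, with log2 fold changes of -1.70 and -0.96. None of these genes passed (smallest edgeR adjusted p = 0.855). Against 400 ng/g the 2000 ng/g group gave 0 calls in 159 genes, with a background of 0%. At an unadjusted p under 0.05 there were 13 (8.18%, background 9.26%), and in 10 genes these groups did not overlap, 4 higher and 6 lower at 2000 ng/g (6.29%, background 11%).

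The highest dose was also set against the other doses. Against 400 ng/g, 17 F-box genes were higher (background 6.71%) and 2 lower (background 6.32%) without overlap, 11.9% in all against 13%, and 17 had an unadjusted p under 0.05 (10.7%, background 9.5%). After fbxa-136 the largest differences among genes of at least 1 CPM were in fbxa-12, fbxa-127, fbxa-188 and fbxa-158. The gene fbxa-127 had 3.04, 3.24 and 2.77 CPM at 10000 ng/g, against 2.36, 0.642 and 1.43 CPM at 400 ng/g (log2 fold change 1.02 ± 0.429, edgeR adjusted p = 0.498). Its groups did not overlap, although a control library reached 2.80 CPM. Against 2000 ng/g, 45 F-box genes were higher (background 15.4%) and 3 lower (background 12.8%), 30.2% in all against 28.1%. At an unadjusted p under 0.05 there were 27, all of them higher at 10000 ng/g (17%, background 10.2%). The math, bath and btb genes split in the same direction against 2000 ng/g, with 30 of 70 higher (42.9%) and 1 lower without overlap. At an unadjusted p under 0.05, 15 of these 70 were higher and 1 lower (background 10.2% in either direction). All 17 F-box genes higher than at 400 ng/g were fbxa genes, as were 39 of the 45 higher than at 2000 ng/g. The fbxa genes were 82.4% of the F-box genes tested.

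Summed over the tested genes, fbxa transcripts came to 449, 478 and 523 CPM in the controls, 583, 440 and 438 CPM at 400 ng/g, 434, 460 and 462 CPM at 2000 ng/g, and 536, 552 and 507 CPM at 10000 ng/g. The 10000 ng/g group overlapped the controls, whose highest library exceeded its lowest. The 18 fbxc genes summed to 58.7 ± 6.12 CPM in the controls, 54.7 ± 1.09 CPM at 400 ng/g, 53.3 ± 6.22 CPM at 2000 ng/g and 55.9 ± 3.97 CPM at 10000 ng/g (SD, n = 3). The 10 fbxb genes summed to 4.64 ± 1.15, 6.12 ± 2.53, 4.38 ± 1.01 and 4.93 ± 0.242 CPM in the same order (SD, n = 3). Neither the fbxc nor the fbxb sums separated any group from the others beyond this spread.

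The core of the SCF ligase was followed beside its F-box subunits, as cullins, RING proteins, activators and all Skp1-related adaptors. Of 28 named genes 19 were tested, and 0 passed in any comparison between groups. The scaffold cul-6 averaged 6.13 ± 0.537 CPM at 10000 ng/g, against 4.11 ± 0.548 CPM in the controls (SD, n = 3), a log2 difference of 0.58 (edgeR adjusted p = 0.144). The adaptor skr-4 averaged 43.2 ± 0.342 CPM at 10000 ng/g, against 29.2 ± 4.26 CPM in the controls (SD, n = 3), a log2 difference of 0.56 (edgeR adjusted p = 0.0832). The adaptor skr-5 had a log2 difference of 0.49 (edgeR adjusted p = 0.217), and these 3 were the genes with an unadjusted p under 0.05 and a higher level. Lower levels at an unadjusted p under 0.05 were also found in 3 genes, where 20.6% of all genes tested had such a p in either direction. The adaptor skr-2 averaged 47.7 ± 1.02 CPM at 10000 ng/g, against 65.7 ± 6.33 CPM in the controls (SD, n = 3), a log2 difference of -0.46 (edgeR adjusted p = 0.103). The adaptors skr-17 and skr-18 had log2 differences of -0.48 and -0.33 (edgeR adjusted p = 0.147 and 0.161). Over the 19 genes the median log2 fold change was -0.05, with 8 positive and 11 negative. The general scaffold cul-1 averaged 87.6 ± 2.26 CPM at 10000 ng/g, against 92.8 ± 2.42 CPM in the controls. Of 10 other F-box genes with known roles, such as the Notch regulator sel-10, 0 passed at any dose, and their median log2 fold change at 10000 ng/g was -0.15.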

How the data were processed

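The authors deposited raw counts per gene and FPKM values for the same 12 libraries, with gene length and protein signatures. The tools named, per the submitters' processing notes, include DESeq2 1.42.0, the read counter featureCounts 2.0.6, the aligner HISAT2 2.2.1 and CASAVA. Their settings, strand use and genome build: not given in the sources used here. The count divided by length and FPKM was constant within a library to 4.6e-07 percent. Coordinates are those of WBcel235 in Ensembl release 115, which hold all 322 genes.

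Counts were tested with edgeR 4.0.16 in R 4.3.3 (TMM, low-count filter with a minimum count of 10, quasi-likelihood, 2-sided, group means over 12 libraries), adjusted by the Benjamini-Hochberg method over 16665 genes with a threshold of 0.05. CPM is TMM-scaled. List and subfamily medians use a prior count of 2, and single genes and clusters the 0.125 of the fit. The biological coefficient of variation was 24.1%. The script was tested on simulated counts. Genes were named when called, or when among the 5 largest rises or falls per dose against control (at least 1 CPM, groups separate). The same rule was applied to the highest dose against 400 ng/g. Genes were also named when highest or least or most variable per subfamily, and when known from the pathogen response. The genes fbxa-24, fbxa-174, fbxa-189, fbxa-202 and fbxc-40 were named after their values were seen. So were the genes under 1 CPM given at 2000 ng/g and those listed only as above or below all other libraries. Members, lists and rules were chosen with earlier results of these data known. No sequence is shown.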

Additional observations from a re-analysis of the deposited data

How the results depend on the processing

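The number of F-box genes called was small and moved with the fit, as did that of all genes, whose share called in the same fit is given as background. Against control at 400 ng/g it was 0, and became 5 with no low-count filter (1.96% of those tested, background 3.74%), 2 with a replicate block (1.26%, background 3.47%) and 9 with DESeq2 (5.66%, background 9.8%); leaving out a library gave 0 to 4, with 4 without 2000 ng/g replicate 3 (2.41%, background 5.31%) and 1 without 400 ng/g replicate 3 (0.592%, background 3.88%). At 10000 ng/g against control it was 0, and became 4 with only the 2 groups compared (2.68%, background 2.67%), 5 without all 400 ng/g libraries (3.21%, background 3.7%; chosen after seeing the data), and 8 with DESeq2 (5.03%, background 6.64%); leaving out a library gave 0 to 6, with 6 (fbxa-76, fbxa-136, fbxa-174, fbxa-182, fbxa-189 and fbxa-197) without 400 ng/g replicate 1 (3.59%, background 3.09%). At 10000 against 400 ng/g it was 1, and became 0 with library totals alone (background 0.036%), 0 with only those 2 groups (background 0%) and 4 with DESeq2 (2.52%, background 0.972%), with a range of 0 to 5 over left-out libraries (5 without 400 ng/g replicate 1, 2.99%, background 4.37%). At 10000 against 2000 ng/g it was 1, and became 0 with library totals alone (background 0.012%), 11 with only those 2 groups (7.38%, background 5.6%), 2 without all 400 ng/g libraries (1.28%, background 0.347%) and 4 with DESeq2 (2.52%, background 0.816%), with a range of 0 to 2. For any difference it was 1, and became 16 with DESeq2 (10.1%, background 10.3%) and 0 to 2 over left-out libraries. For the trend over dose order it was 0, and became 1 (fbxa-189) with dose in ng/g (0.629%, background 0.294%) and 3 with DESeq2 (1.89%, background 1.34%). The 2 comparisons of 2000 ng/g with control and with 400 ng/g gave 0 in every fit that was run. The cause of these shifts was not tested. Of the genes above all other libraries at 10000 ng/g, fbxa-75 and fbxa-174 had no control at the level of the low-count filter. For both, the 10000 ng/g libraries alone were enough to pass it. DESeq2 gave no adjusted p for 27 of the F-box genes at 10000 ng/g against control.

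Medians moved by more than their within-group SD between libraries (0.124 for fbxa, 0.251 for fbxb and 0.197 for fbxc) in the following cases. With a mean of at least 1 CPM, fbxb, then 1 gene, was 0.86, -0.27 and -0.19 at 400, 2000 and 10000 ng/g, and fbxc at 10000 ng/g, over 12 genes, was -0.09. Without 400 ng/g replicate 1 the fbxa median at 400 ng/g was -0.09, with a range up to 0.11, and over left-out libraries that of fbxb at 2000 ng/g was -0.28 to 0.02. The fbxa median at 10000 ng/g moved by less than this SD, to 0.17 with a mean of at least 1 CPM, against 0.23 over all tested genes.

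A replicate block was fitted because groups share replicate numbers, although the labels do not say what a number means. Deviations of same-numbered libraries correlated between -0.47 and 0.34, which does not settle whether a number stands for shared handling. With the block the calls for 10000 against 400 and against 2000 ng/g stayed at 1 each, and 0 at 10000 ng/g against control. At 400 ng/g against control they went from 0 to 2 F-box genes of 159, with a background of 3.47%. Low levels limit what can be said of the F-box genes: their median was 2.06 CPM, and 163 were not tested.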

Other observations

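Some like-named fbxc loci showed counts in a single library. The fbxc-5 locus WBGene00016649 had 36 of its 38 counts in replicate 3 at 10000 ng/g, and the fbxc-4 locus WBGene00016648 had all 24 counts in control replicate 1. Neither entered a test.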
